A study of Mus musculus with 16 samples.

Results

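The Hox clusters are 4 runs of neighbouring homeobox genes, and 38 of their genes were followed here, among 22253 protein-coding genes on the autosomes and the X chromosome that received the same measurement. The members were 10 genes of Hoxa on chromosome 6, 10 of Hoxb on chromosome 11, 9 of Hoxc on chromosome 15 and 9 of Hoxd on chromosome 2 (mm9). They were chosen by name and not by a measured value, though earlier results of these data were known at the time. Each gene was given a window made of its gene body plus 5 kb on each side, and the base of every result is the share of that window that lay inside a listed ChIP-seq island, called cover below. Because Hox genes lie close together, 34 of the 38 windows overlapped a neighbour's, so 1 island could count for several members.

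The data came from 3T3-L1 cells, an established line of mouse embryonic fibroblasts committed to the fat lineage, studied for how SETD5, a SET-domain protein, bears on enhancers when these preadipocytes turn into adipocytes. Cells at 0 h were confluent preadipocytes, and cells at 6 h or 48 h had received the adipogenic mixture of insulin, dexamethasone and IBMX. H3K27ac, an acetylation found at active enhancers and promoters, was profiled in cells carrying an empty retroviral vector and in cells carrying a retrovirus for V5-tagged SETD5 (SETD5-V5), at 0 h and 48 h, with replicates A and B in each of the 4 groups. SETD5-V5 itself was mapped with a V5 antibody at 0 h and 6 h (replicates A and B), while H3K4me1, a methylation of enhancers that may be active or only primed, was profiled at 0 h and 48 h and endogenous SETD5 at 0 h and 6 h, with 1 library each and so no replicate check. All cells shared the parental line. The vector carried SETD5 under a viral promoter described in the methods as weak. The H3K4me1 libraries carry the SETD5 virus in their labels, while the study describes their cells only as 3T3-L1 preadipocytes and names no virus for them. Replicate A of the V5 libraries has no virus entered although its title names SETD5-V5, so both sets are called here by antibody and time. No source stated that replicates came from separate infections, so p-values measure the spread between these libraries only.

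Hox proteins are transcription factors that give body segments, limbs and many adult mesenchymal tissues their positional identity. Their genes are arranged in the order of the body axis, with low-numbered (anterior) genes at one end and high-numbered (posterior) genes at the other, and genes of the same number in different clusters are paralogues. Fibroblasts keep a Hox pattern of the site they came from, Polycomb proteins hold the unused stretches silent, and Trithorax proteins keep the used ones open. The clusters also carry microRNAs and long noncoding RNAs that lie between the coding genes.

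The deposited island lists held 31292 to 39949 islands for H3K27ac, with fewer in the 4 empty-vector libraries (31292 to 35460) than in the 4 SETD5-V5 libraries (36604 to 39949). The V5 lists at 0 h were unequal, 16054 islands for replicate A but 6666 for B, against 35573 and 27220 at 6 h. Endogenous SETD5 gave 2132 and 3293 islands, so few Hox windows could be reached by that list. All 6 fibroblast and preadipocyte marker genes had an H3K27ac island in both libraries of every group. Of 6 adipocyte genes, 3 were marked at 0 h and all 6 at 48 h with either vector. Their cover differed, since at 48 h all 6 were lower in both SETD5-V5 libraries than in both empty-vector libraries (17.6% of all genes). Of 8 markers of other cell types 1 (Krt5, a keratin of basal epithelium) had an H3K27ac island in both libraries of each group at 0 h, and 0 at 48 h. The albumin gene Alb had one at 0 h in replicate B alone, at 17.1% with empty vector and 2.33% with SETD5-V5. In the single endogenous SETD5 list at 0 h its window had 51.3% cover. Read counts per island were not part of the lists used here, so the precision behind a single cover value is unknown, and the absence of an island says only that the signal stayed under the caller's threshold.

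A set of 3 promoters is printed first because the promoters stand for the states described below, each as the 250 bases before the annotated start of a coding transcript (mm9, read on the plus strand) with CpG dinucleotides in capitals. The Hoxd8 stretch, chr2:74542959-74543208, held 28 CpG and lay in an island of all 8 H3K27ac and all 4 V5 libraries. The Hoxc13 stretch, chr15:102751284-102751533, held 15 CpG and lay in an island of all 8 H3K27ac libraries, at the posterior end of its cluster. The Hoxb5 stretch, chr11:96163659-96163908, held 9 CpG and lay in no island of any of the 16 lists.
Hoxd8: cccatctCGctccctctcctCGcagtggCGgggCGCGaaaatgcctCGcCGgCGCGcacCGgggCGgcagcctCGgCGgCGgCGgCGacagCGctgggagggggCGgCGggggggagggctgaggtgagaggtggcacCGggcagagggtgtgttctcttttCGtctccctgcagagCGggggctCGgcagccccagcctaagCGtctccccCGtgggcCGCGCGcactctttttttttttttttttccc
Hoxc13: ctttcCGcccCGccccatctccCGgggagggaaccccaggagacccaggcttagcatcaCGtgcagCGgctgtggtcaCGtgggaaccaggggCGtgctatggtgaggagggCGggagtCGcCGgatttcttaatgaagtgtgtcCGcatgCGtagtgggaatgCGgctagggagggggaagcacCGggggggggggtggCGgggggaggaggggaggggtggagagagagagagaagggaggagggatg
Hoxb5: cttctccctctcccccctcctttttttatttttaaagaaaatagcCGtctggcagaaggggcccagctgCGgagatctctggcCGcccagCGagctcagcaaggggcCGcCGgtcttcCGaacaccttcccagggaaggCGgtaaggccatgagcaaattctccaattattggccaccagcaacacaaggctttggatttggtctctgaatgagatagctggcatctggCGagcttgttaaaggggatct

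Across the 8 H3K27ac libraries, 17 of 38 windows (44.7%) held an island in every library, against 51.5% of all genes. A further 8 held one in some libraries, and 13 (34.2%) held none, against 34.7% of all genes. By these shares the clusters sat near the rest of the genome. Pooled over the clusters, lower-numbered genes were marked more often, although the tips Hoxb1 and Hoxd1 held no island and the course differed between clusters, as described below: 7 of 11 members of paralogue groups 1 to 4 and 6 of 11 of groups 5 to 8 were marked in all 8 libraries, but 4 of 16 of groups 9 to 13. By cluster the count was 7 of 10 in Hoxa, 3 of 10 in Hoxb, 3 of 9 in Hoxc and 4 of 9 in Hoxd. In all, 9 genes, Hoxa13, Hoxb1, Hoxb5, Hoxb6, Hoxb7, Hoxb8, Hoxb9, Hoxb13 and Hoxd1, held no island in any of the 16 lists.

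**Figure D1:**
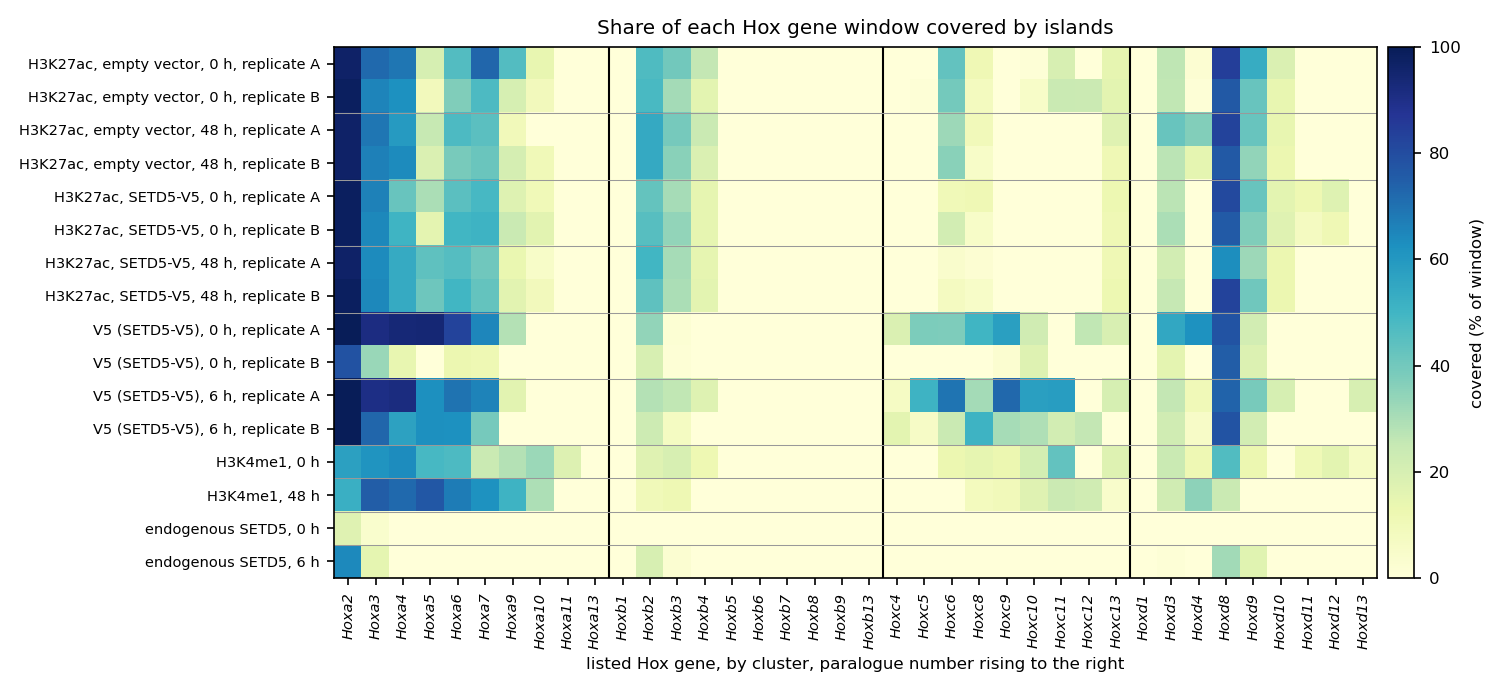
Cover of each Hox window (columns, 38 genes in cluster order) in each of the 16 libraries (rows), as the percentage of the window inside listed islands, on a colour scale from 0 to 100%. Hoxa2 to Hoxa7, Hoxb2 to Hoxb4 and Hoxd8 to Hoxd10 form the marked blocks in the 8 H3K27ac rows, and the columns from Hoxb5 to Hoxb13 stay at 0 in every row.

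A few windows were marked over most of their length. Windows over 50% covered made up 3 to 6 members (7.89% to 15.8%) in the 8 H3K27ac libraries, against 2.00% to 4.61% of all genes. The median member lay above the median gene at 0 h and below it at 48 h. Its cover was 6.37% to 10.2% in the 4 libraries at 0 h, against 2.93% to 3.75% for the median gene, and at 48 h 0% and 2.56% with empty vector and 0% in both SETD5-V5 libraries, against 3.12% to 3.73%. Because windows overlap, these members were not independent of each other.

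Hoxa held the most H3K27ac. Its merged windows had 48.4% and 40.7% cover in the empty-vector 0 h libraries, where Hoxb had 13.9% and 12.2%, Hoxc 12.8% and 15.2% and Hoxd 20% and 18.6%. The marked stretch began at Hoxa2, which patterns the second pharyngeal arch and had 96.5% to 98.1% cover in every H3K27ac library, and ran through Hoxa3, a gene needed for the thymus and parathyroid, at 63.8% to 72.0%. In the empty-vector 0 h libraries 1 island of 22.2 kb (replicate A, chr6:52107801-52130000) and 1 of 22.8 kb (replicate B) covered the Hoxa2 gene and its upstream side, and only 0.0920% of the islands in the replicate A list had a higher score. Hoxa2 was therefore covered almost end to end whatever the vector or the time.

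The steepest step between neighbours in Hoxa lay between Hoxa4 and Hoxa5. Hoxa4 had 68.9% and 62.3% cover in the empty-vector 0 h libraries and Hoxa5, which acts in lung and in the neck and upper trunk skeleton, had 20.3% and 9.35%. The mark did not end there, since Hoxa6 had 46.2% and 37.4%, Hoxa7 72.9% and 47.5%, Hoxa9 46.1% and 20% and Hoxa10, a gene of the uterus and hindlimb, 14.3% and 9.16%. Hoxa11 and Hoxa13, which build the lower limb segments and the digits, had no H3K27ac island in any library, and the 100 kb beyond Hoxa13 had none either. The posterior end of Hoxa was thus unmarked from Hoxa11 onward. The annotated Hoxa3 model is long and runs over its neighbours as far as Hoxa6, so its value is partly theirs.

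Hoxb was marked over a short anterior stretch. Hoxb1, which specifies a hindbrain segment, had no island while its neighbour Hoxb2, active in the same hindbrain territory, had 46.9% and 48.4% in the empty-vector 0 h libraries. Hoxb3 followed with 40.0% and 31.1% and Hoxb4, known from blood stem cells, with 25.4% and 16%. An island lay over the start of Hoxb2 in every H3K27ac library (chr11:96209601-96216200 in empty-vector 0 h replicate A). From Hoxb5 to Hoxb13 all 6 windows were at 0 in all 16 lists.

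Hoxc had its H3K27ac at separate places rather than along one stretch. Hoxc6, a thoracic gene, had 43.2% and 39.8% in the empty-vector 0 h libraries while its neighbour Hoxc5 had 0% and 1.14%, the largest step in the cluster. Hoxc8 had 11% and 8.05%, and Hoxc4 and Hoxc9 had none. At the far posterior end Hoxc13, which controls hair and nail keratins, had a short island over its start in every H3K27ac library, with cover from 11.3% to 16.9%. None of the 4 genes between Hoxc13 and Hoxc8 was marked in all 8 libraries.

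In Hoxd the marked stretch lay in the middle. Hoxd8 had 84.0% and 76.5% in the empty-vector 0 h libraries, and its anterior neighbour Hoxd4 had 2.13% and 0.966%, the largest step between neighbours in any cluster. Hoxd9 had 53.2% and 42.0% and Hoxd10 18.5% and 14.3%, and Hoxd3, a gene of the neck vertebrae, had 26.3% and 25.9%. The Hoxd3 model begins between Hoxd8 and Hoxd4 and spans Hoxd4, so its cover came largely from its start. Hoxd1 had no island in any list, and Hoxd13, the digit gene, had no H3K27ac.

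**Figure D2:**
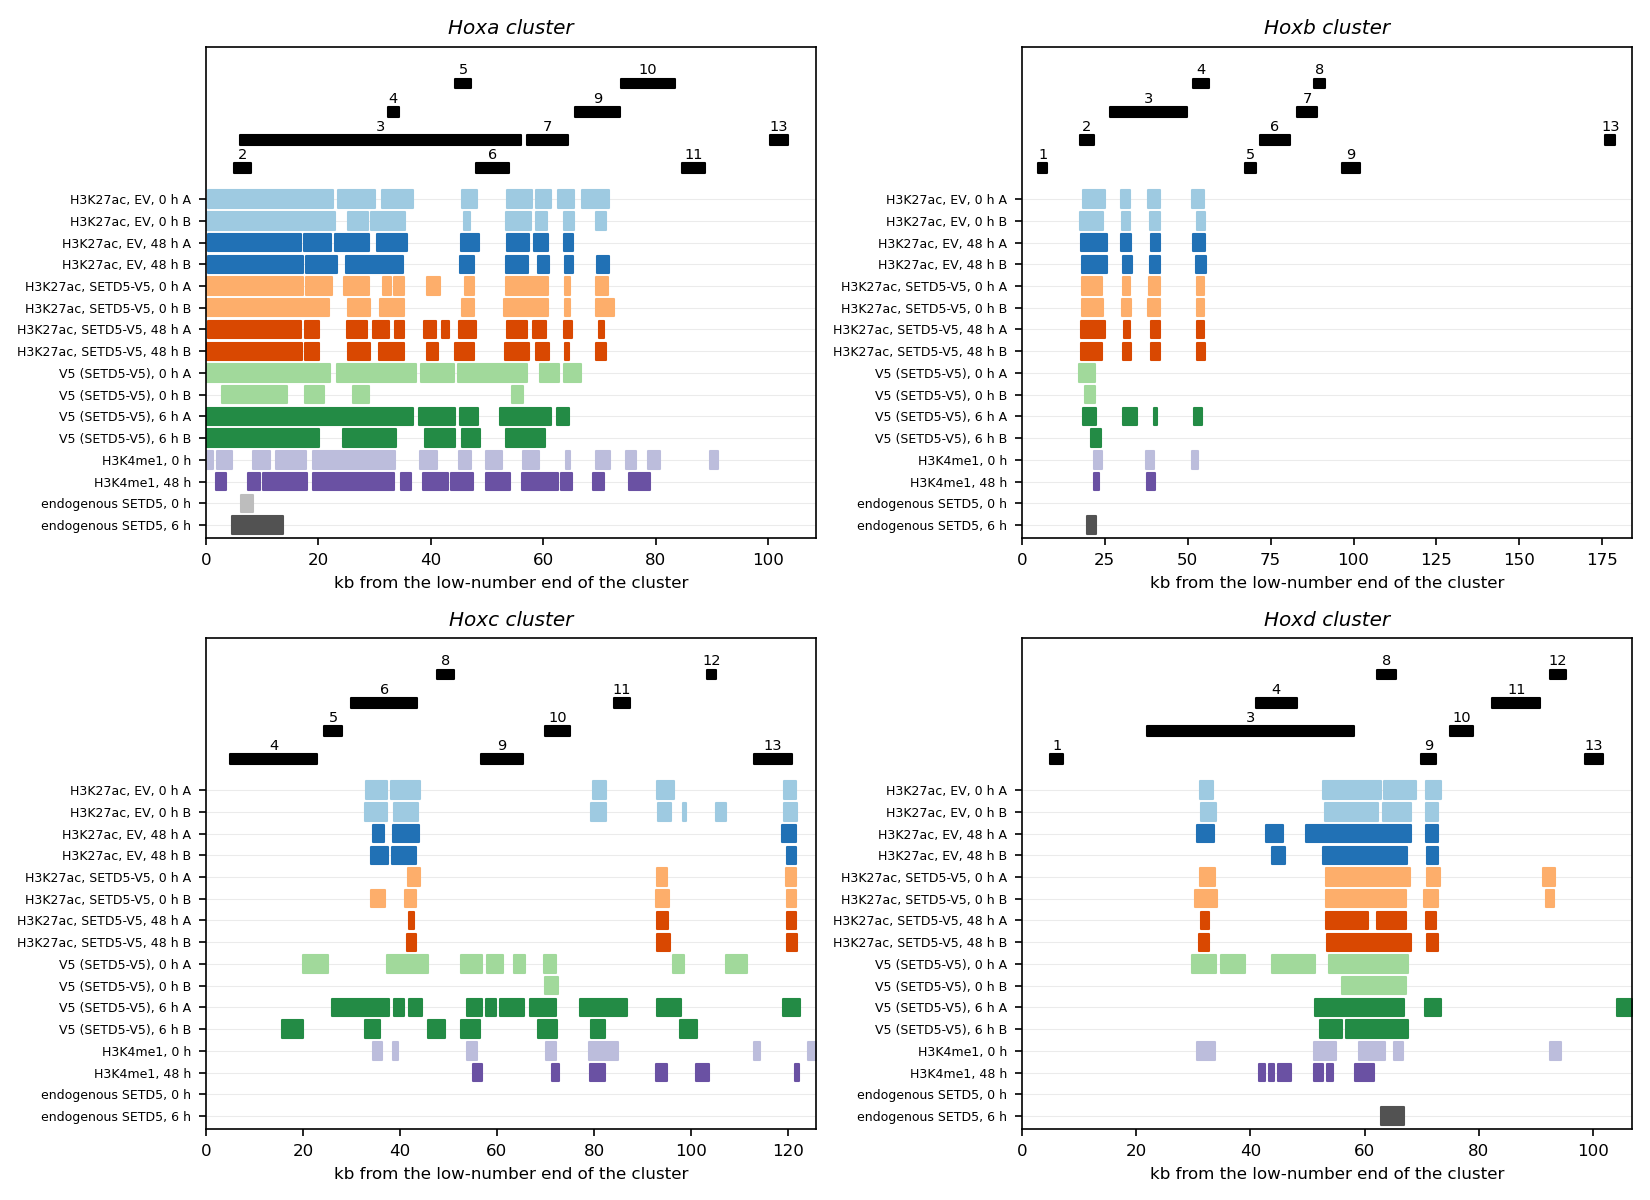
Listed islands (bars) along the 4 clusters in each library (rows), with distance in kb from the low-numbered end on the x axis and the member genes drawn above each map as black bars with their paralogue number; EV is the empty vector. Islands crowd the low-numbered end of Hoxa, sit around Hoxb2 to Hoxb4, stand apart at Hoxc6 and Hoxc13, and centre on Hoxd8 in Hoxd.

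The first comparison asked how the clusters changed in empty-vector cells over the first 48 h of differentiation. An island in both libraries was present for 21 of 38 members at 0 h (55.3%; 56.1% of all genes) and for 18 at 48 h (47.4%; 56.4% of all genes). Cover of all merged Hox windows was 23.2% and 21.3% at 0 h and 21.8% and 19.8% at 48 h, which overlapped. Members whose 48 h values both lay above the 0 h values were 3 (7.89%), Hoxb2, Hoxd3 and Hoxd4, against 22.1% of all genes. Members whose 48 h values both lay below were 4 (10.5%), Hoxa7, Hoxc6, Hoxc10 and Hoxc11, against 13.2% of all genes. With 2 libraries a side the smallest two-sided exact permutation p is 0.333, so no member could pass a test in such a comparison.

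Hoxd4, an anterior gene of the neck vertebrae, had the largest difference in covered bases among these members. It had 2.13% and 0.966% cover at 0 h and 37.0% and 14.9% at 48 h, a mean difference of 4200 bp. The new islands, chr2:74562401-74565400 in replicate A and chr2:74562201-74564400 in replicate B, lay inside the gene, and 96.3% and 97.1% of the islands in those lists had a higher score, so both stood near the caller's threshold. In replicate A the rest of the Hoxd4 cover came from the edge of the strong 18.4 kb island over Hoxd8 and the Hoxd3 start, above which 0.284% of that list scored. Hoxd3 shared these islands and had 26.3% and 25.9% at 0 h and 41.9% and 27.2% at 48 h, with most of the difference in replicate A. In that library the 18.4 kb island ran further into Hoxd3 than in any other H3K27ac library.

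The islands inside Hoxd4 covered Mir10b, the microRNA of the cluster. Mir10b (chr2:74564127-74564194) was wholly inside an island in both empty-vector 48 h libraries, in V5 0 h replicate A and in H3K4me1 at 48 h, and in no island of the other 12 lists. Its relative Mir10a in Hoxb was in no island of any list, and the same held for Mir196b in Hoxa and Mir196a-1 in Hoxb. Mir196a-2 in Hoxc was reached only by V5 at 6 h, at 100% and 26.4%. The mature forms (RefSeq, GRCm38.p6) are shown with bases 2 to 8, the seed that pairs with targets, in capitals, because the marked and unmarked copies share it within each family. From the 5′ end, miR-10a-5p and miR-10b-5p differ by U12A and miR-196a-5p and miR-196b-5p by A12C, the first-named miRNA's base being given first.
miR-10a-5p: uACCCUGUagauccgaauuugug
miR-10b-5p: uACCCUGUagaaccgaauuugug
miR-196a-5p: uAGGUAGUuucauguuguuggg
miR-196b-5p: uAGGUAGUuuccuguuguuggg

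Hoxa7 and Hoxc11 were lower at 48 h in empty-vector cells. Hoxa7, a trunk gene, had 72.9% and 47.5% at 0 h and 44.9% and 41.5% at 48 h, a mean difference of -2953 bp that the higher 0 h value dominated. Hoxc11, a gene of the hindlimb and lumbosacral region, had 19.6% and 24.1% at 0 h and 0% in both libraries at 48 h. Its 0 h island (chr15:102789801-102792400 in replicate A) lay in the gap between Hoxc11 and Hoxc10 and over the body of neither gene.

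The second comparison was the same time course in SETD5-V5 cells. An island in both libraries was present for 20 members at 0 h (52.6%; 57.4% of all genes) and for 18 at 48 h (47.4%; 58.3% of all genes). Cover of all merged windows was 18.6% and 19.4% at 0 h and 16.4% and 17.5% at 48 h, so the 48 h values were below both 0 h values. The members with both 48 h values above were 2 (5.26%), Hoxa4 and Hoxa5, against 17.2% of all genes. The members with both below were 9 (23.7%), Hoxa3, Hoxa7, Hoxa9, Hoxa10, Hoxc6, Hoxd3, Hoxd10, Hoxd11 and Hoxd12, against 16.8% of all genes. Some of these windows share islands, as those of Hoxd11 and Hoxd12 did, so the count holds some islands more than once.

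Hoxa5 had 30.0% and 15.6% at 0 h and 44.0% and 40.9% at 48 h in SETD5-V5 cells. At 48 h its islands included small ones between Hoxa4 and Hoxa5 (chr6:52146201-52148200 and chr6:52149401-52150600 in replicate A), with 76.7% and 90.2% of that list scoring higher. Hoxd3 had 27.2% and 29.8% at 0 h and 21.2% and 25.1% at 48 h, whereas in empty-vector cells both values were higher at 48 h, and this difference between vectors was not tested. Hoxd11 and Hoxd12, both digit and forearm genes, had H3K27ac only in SETD5-V5 cells at 0 h, with 12% and 7.63% for Hoxd11 and 17.2% and 11% for Hoxd12 from 1 shared island per library. In replicates A and B 81.4% and 87.2% of the islands in the list scored higher than the shared island, so both calls were weak. Neither gene was marked in the empty-vector cells or at 48 h.

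Over both vectors, Hox cover did not separate by time. The 4 libraries at 48 h had 18.9% ± 2.40 (SD, n = 4) and the 4 at 0 h 20.7% ± 2.05, a difference of -1.78 percentage points (two-sided exact permutation test, p = 0.314). By cluster the 48 h minus 0 h differences were -2.76 for Hoxa, 0.168 for Hoxb, -3.59 for Hoxc and -0.930 for Hoxd, with exact permutation p-values, adjusted over 8 tests by cluster, of 0.503, 0.857, 0.503 and 0.784. No member was higher in all 4 libraries at 48 h than in all 4 at 0 h, where 9.09% of all genes were, and 1 member (2.63%), Hoxa7, was lower, against 6.57% of all genes. In Hoxa7 the 4 values at 48 h ran from 40.3% to 44.9% and the 4 at 0 h from 47.5% to 72.9%.

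The third comparison set SETD5-V5 against empty vector, and here Hox cover was lower with SETD5-V5 in all libraries. The 4 SETD5-V5 libraries had 18% ± 1.33 (SD, n = 4) and the 4 empty-vector libraries 21.5% ± 1.42, a difference of -3.52 percentage points (two-sided exact permutation test, p = 0.0286, the smallest that 4 against 4 allows). The highest SETD5-V5 value was 19.4% and the lowest empty-vector value 19.8%, so the groups were narrowly apart. By the total reads that the study lists, every SETD5-V5 library was also deeper than every empty-vector library. Vector and depth therefore go together here, and a part of depth in the difference was not tested. Over all gene windows of the genome the empty-vector libraries had 5.57% to 7.11% and the SETD5-V5 libraries 6.16% to 7.14%, and with Hox cover taken relative to all bases covered in each list the p was again 0.0286. Leaving out either SETD5-V5 library at either time, or empty-vector 0 h replicate A, gave differences of -2.95 to -4.01 with p = 0.0571 (exact permutation test). The test treats 0 h and 48 h libraries of a vector as exchangeable, and the exact permutation p was 0.0556 with splits within each time, 0.0571 with islands above the median score and 0.125 with a replicate block.

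By cluster, Hoxc carried the largest difference. It had 12.8% and 15.2% cover at 0 h and 8.84% and 8.67% at 48 h with empty vector, and 3.84% and 5.84% at 0 h and 2.50% and 3.34% at 48 h with SETD5-V5. Every SETD5-V5 library was below every empty-vector library, with means of 3.88% ± 1.42 and 11.4% ± 3.18 (SD, n = 4) and a difference of -7.50 points. The exact permutation p was 0.0286 and, adjusted over the 8 tests, 0.229, so it did not pass the 0.05 threshold. The differences were -2.85 for Hoxa (adjusted p = 0.457), -1.68 for Hoxb (0.229) and -1.71 for Hoxd (0.686), all from the exact permutation test and none past the threshold. In Hoxa, Hoxb and Hoxd the values of the vectors overlapped.

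**Figure D3:**
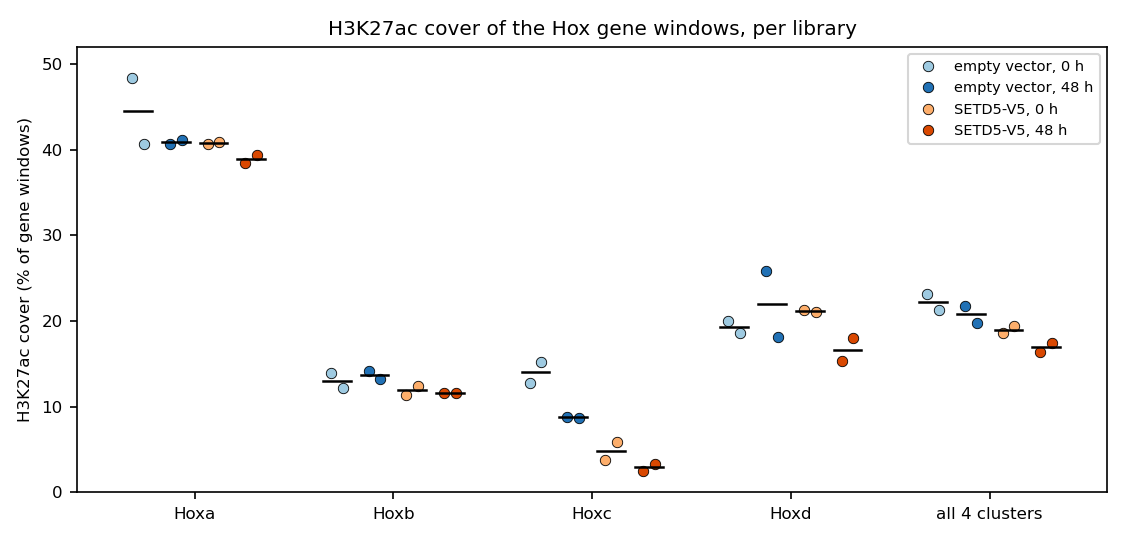
H3K27ac cover of each cluster's merged windows (y axis, percent of bases) in each library, grouped by vector and time; dots are the 2 libraries of a group and short lines their mean. The SETD5-V5 dots of Hoxc sit between 2.50% and 5.84%, all below the empty-vector dots at 8.67% to 15.2%.

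At single members, 3 (7.89%) were lower in all 4 SETD5-V5 libraries than in all 4 empty-vector libraries, namely Hoxa4, Hoxc6 and Hoxd4, against 1.16% of all genes. No member was higher in all 4, where 1.62% of all genes were. At 0 h alone, 8 members (21.1%) were lower with SETD5-V5, against 7.94% of all genes, and 3 (7.89%) higher, against 13%. The lower ones were Hoxa4, Hoxb2, Hoxb4, Hoxc6, Hoxc10, Hoxc11, Hoxc13 and Hoxd4, and the higher ones Hoxd3, Hoxd11 and Hoxd12. At 48 h, 8 (21.1%) were lower, against 17.6% of all genes, and 1 (2.63%), Hoxa5, was higher, against 12.3%. The 48 h members that were lower were Hoxa3, Hoxa4, Hoxb2, Hoxb3, Hoxb4, Hoxc6, Hoxd3 and Hoxd4. The comparisons at 0 h and 48 h use different libraries. Because windows overlap, these counts hold some islands more than once. At 0 h Hoxc10 and Hoxc11 shared the same island in each library, as did Hoxd11 and Hoxd12. Hoxd4 at 0 h differed only by the edge of the Hoxd3 island (366 and 166 bp). At 48 h Hoxb3 and Hoxb4 shared an island, and so did Hoxd3 and Hoxd4.

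Hoxc6 was the member with the largest difference in covered bases at both times. It had 43.2% and 39.8% at 0 h and 32.2% and 35.6% at 48 h with empty vector, and 10.2% and 21.2% at 0 h and 4.23% and 7.62% at 48 h with SETD5-V5. The mean difference was -6100 bp at 0 h and -6600 bp at 48 h, with every SETD5-V5 value below every empty-vector value. In empty-vector 0 h replicate A the islands were chr15:102828201-102834200, over the upstream start of the annotated gene, and chr15:102835001-102839200 inside it. In SETD5-V5 48 h replicate A a single island of 1.00 kb remained at chr15:102829401-102830400. The Hoxc6 window was thus less covered in SETD5-V5 cells at both times, and less covered at 48 h than at 0 h with either vector.

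Other members followed with smaller differences. Hoxa4 had 68.9% and 62.3% at 0 h and 59.0% and 64.0% at 48 h with empty vector, and 42.1% and 50.7% at 0 h and 53.7% in both libraries at 48 h with SETD5-V5. Hoxc11 was listed at 0% in all 4 SETD5-V5 libraries, so its 0 h island between Hoxc11 and Hoxc10 was seen in empty-vector cells alone. Hoxd4 was at 0% in all 4 SETD5-V5 libraries, and in empty-vector cells at 0 h it was reached only by the edge of the Hoxd3 island (366 and 166 bp), so its difference in bases rests on empty-vector 48 h, where the islands inside the gene stood near threshold and, in replicate A, the 18.4 kb island also reached into the window. Hoxd3 at 48 h had 41.9% and 27.2% with empty vector and 21.2% and 25.1% with SETD5-V5. Hoxc13 had 14.7% and 15.8% at 0 h with empty vector and 12.4% and 11.3% with SETD5-V5, and at 48 h the vectors overlapped, with 16.9% and 11.3% against 11.3% and 12.4%.

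**Figure D4:**
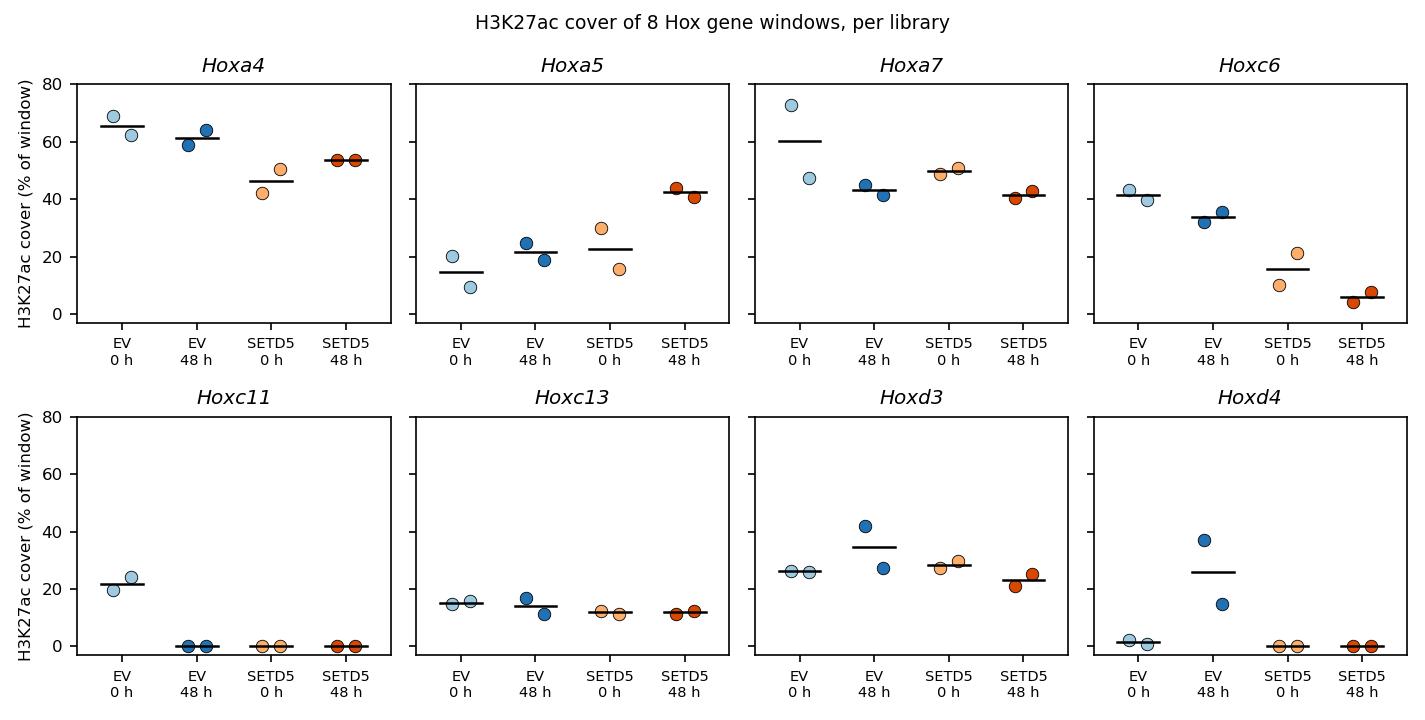
H3K27ac cover (y axis, percent of the window) of Hoxa4, Hoxa5, Hoxa7, Hoxc6, Hoxc11, Hoxc13, Hoxd3 and Hoxd4 in each of the 8 libraries; EV is the empty vector each dot is 1 library and each line the mean of 2. The Hoxc6 dots lie at 32.2% or more with empty vector and at 21.2% or less with SETD5-V5, while Hoxc13 stays between 11.3% and 16.9%.

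The noncoding genes of the clusters did not all follow their neighbours. Hotair, an antisense long noncoding RNA between Hoxc12 and Hoxc11 long studied with Polycomb (chr15:102774493-102778851, listed as Gm16258), had 70% and 56.2% of its body covered in empty-vector cells at 0 h and 0% in both libraries at 48 h. With SETD5-V5 it had 37.9% and 47.1% at 0 h and 42.5% and 51.6% at 48 h. Hotair at 48 h was thus marked in both SETD5-V5 libraries and in neither empty-vector library, the opposite order to Hoxc6, and this was not tested. Its H3K27ac islands touched no member window. Hotairm1 beside Hoxa2 had 82.8% to 86.6% in all 8 H3K27ac libraries and Hoxd3os1 beside Hoxd8 had 87.6% to 100%, whereas Hottip, at the posterior end of Hoxa, and Haglr, between Hoxd3 and Hoxd1, were at 0% in all 16 lists. These noncoding genes were chosen after their values were seen.

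The V5 lists asked where tagged SETD5 sat. Both V5 libraries had an island for 12 members at 0 h (31.6%; 13% of all genes) and 19 at 6 h (50%; 36.3% of all genes). At 0 h replicate A alone marked 21 members, and all Hox windows together had 28.1% cover in A but 8.12% in B. At 6 h it was 30.3% and 19.3%. The 6 h values lay above both 0 h values for 3 members (7.89%), Hoxb3, Hoxc10 and Hoxc11, against 25.3% of all genes, and below for 0, against 0.768%. The difference over all windows was 6.70 points (two-sided exact permutation test, p = 0.667), and with 2 libraries a side no p under 0.333 was possible.

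By position, V5 lay over the H3K27ac stretches in Hoxa and Hoxd. Hoxa2 had 100% and 78.2% at 0 h and 100% in both libraries at 6 h, Hoxa3 had 91.3% and 33.0% at 0 h and 90.3% and 72.8% at 6 h, and Hoxd8 had 78.0% and 75.0% at 0 h and 73.5% and 78.0% at 6 h. In V5 6 h replicate A 1 island of 40.8 kb ran from Hoxa2 to Hoxa4. In Hoxc, V5 lay on Hoxc6, at 37.7% and 0% at 0 h and 69.4% and 24.2% at 6 h, and also on genes with little or no H3K27ac. Hoxc9 had no H3K27ac island in any library and had V5 at 57.5% and 2.85% at 0 h and 72.5% and 30.7% at 6 h, while Hoxc11 had 0% in both libraries at 0 h and 58.3% and 21.1% at 6 h. Hoxc4, Hoxc9 and Hoxd13 had V5 in at least 1 library and H3K27ac in none (Hoxc9 and Hoxd13 named after their values were seen).

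As shares of bases, 66.2% of the H3K27ac bases of the Hox windows in empty-vector 0 h replicate A lay under V5 0 h replicate A islands, against 34.1% over the genome, and 34.4% against 14.3% for the B libraries. At 6 h the shares were 82.3% and 60.4%, against 62.9% and 48.8%. The shares under H3K4me1 at 0 h, 50.7% and 52%, were close to the genome's 50.7% and 52.6%. In the other direction, 79.9% and 78.4% of V5 6 h bases in Hoxa lay in empty-vector 0 h H3K27ac islands but 30.7% and 26.4% of those in Hoxc, while 89.6% and 35.2% of the Hoxc empty-vector 0 h H3K27ac bases lay under V5 6 h islands. These shares are descriptions, since marks in broad islands overlap more by their length alone.

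Endogenous SETD5 had an island in 2 members at 0 h (5.26%; 5.34% of all genes), Hoxa2 at 16.8% and Hoxa3 at 3.67%, and in 7 at 6 h (18.4%; 10.7% of all genes). The 6 h members were Hoxa2 at 64.4%, Hoxa3 at 15.0%, Hoxb2 at 19.9%, Hoxb3 at 2.40%, Hoxd3 at 0.895%, Hoxd8 at 31.5% and Hoxd9 at 16.5%. Because windows overlap, these came from only 1 island each in Hoxa, Hoxb and Hoxd, and the 0 h members from 1 island in Hoxa. Hoxb3 and Hoxd3 were reached only by the edge of an island over a neighbour. The shares beside all genes thus count single islands more than once. All 7 lay in stretches that carried H3K27ac in all 8 libraries, and no member of Hoxc was among them. With 1 library per time there was no test.

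H3K4me1 marked 25 members at 0 h (65.8%; 48.3% of all genes) and 19 at 48 h (50%; 50% of all genes), and reached 26 at one time or the other. Cover of all windows was 18.8% at 0 h and 17.5% at 48 h. In Hoxa several members had more of it at 48 h, with Hoxa5 at 48.6% and 76.6%, Hoxa7 at 24% and 62.0% and Hoxa4 at 63.6% and 71.9% at 0 h and 48 h in turn. In Hoxd, lower values at 48 h were seen at Hoxd8 (46.6% and 24%) and Hoxd3 (24.2% and 22.0%), while Hoxd4 had 11.4% and 34.9%. Hoxc6 had 12.7% at 0 h and 0% at 48 h, Hoxc11 43.2% and 23.6%, and Hoxc13 17.3% and 4.52%. Hoxa11 and Hoxd13, without H3K27ac, had H3K4me1 at 0 h alone, at 17.7% and 6.44% (Hoxa11 named after its values were seen). Without a replicate these pairs of values carry no error.

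At the start sites, 8 member promoters, taken as 250 bases before to 50 after the start of a coding transcript, lay in an H3K27ac island of both empty-vector 0 h libraries, namely those of Hoxa2, Hoxa3, Hoxa4, Hoxa7, Hoxb2, Hoxc13, Hoxd8 and Hoxd9. Each of the 3 other H3K27ac groups had 9, the same 8 and Hoxa5. For genes with several coding transcripts, the start closest to its own coding start was used, so other starts were not counted. The outermost annotated starts of Hoxa6, Hoxc6 and Hoxd3, for example, lay in H3K27ac islands of both empty-vector 0 h libraries. V5 covered 4 in both libraries at 0 h and 6 at 6 h, and endogenous SETD5 covered 1 at 0 h (Hoxa2) and 3 at 6 h (Hoxa2, Hoxb2 and Hoxd8). Member promoters were rich in CpG, with a median of 16 in 300 bases against 11 over 22196 gene promoters, and an observed-to-expected CpG ratio of 0.628 against 0.512. Of the printed stretches, Hoxd8 thus sat above and Hoxb5 below the member median, though their length was shorter by the 50 bases after the start.

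A set of 4 motifs was searched on both strands of these promoters. TGATNNAT, a joint PBX-HOX site, was in 6 members (15.8%), Hoxa3, Hoxa7, Hoxb1, Hoxb2, Hoxb9 and Hoxc11, against 8.04% of all promoters. TTGCNNAA, a C/EBP site, was in 6 (15.8%), Hoxa9, Hoxa10, Hoxb9, Hoxc4, Hoxd10 and Hoxd12, against 10.2%. TGANTCA, the AP-1 site, was in 3 (7.89%; 6.99% of all), and a core of the CTCF site in 2 (5.26%; 9.43% of all). The PBX-HOX and AP-1 letters can share bases. Matches occurred in marked and unmarked genes, such as Hoxb2 and Hoxb1, and a match describes letters only.

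Beyond the clusters, the 100 kb next to Hoxd1 differed between vectors at 48 h. H3K27ac cover there was 9.40% and 7% at 0 h and 26.2% and 18.4% at 48 h with empty vector, and 7.60% and 9% at 0 h and 12.2% and 12.6% at 48 h with SETD5-V5. Mtx2, the mitochondrial gene next to the cluster, had 11.5% and 11.2% at 0 h and 45.2% and 26.3% at 48 h with empty vector, and 14.2% and 15.8% at 0 h and 18.3% and 19.6% at 48 h with SETD5-V5. Both empty-vector values at 48 h were above all others on this flank. This flank and Mtx2 were picked outside the naming rules given below. Of 9 flanking genes found, 2 were higher and 1 (Mtx2) lower with SETD5-V5 at 48 h without overlap (12.3% and 17.6% of all genes). The 100 kb beyond Hoxc13 had V5 at 37.2% and 6.20% at 0 h and 36.1% and 45.9% at 6 h with H3K27ac at 0% to 5.40%, and the 100 kb next to Hoxc4 and next to Hoxb1 had no H3K27ac in any library.

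Genes that work with Hox proteins were marked throughout. All 9 TALE cofactor genes, which encode PBX, MEIS and PREP proteins that bind DNA with Hox proteins, had an H3K27ac island in both libraries of every group, against 56.1% to 58.3% of all genes. Meis1 had 19.9% and 16.1% at 0 h and 26.2% and 25.7% at 48 h with empty vector, and 24.5% and 29.7% at 0 h and 34.4% and 35.8% at 48 h with SETD5-V5. Of the 9, 4 were higher with SETD5-V5 than with empty vector at 0 h without overlap and 0 lower (13% and 7.94% of all genes), and at 48 h 3 were higher and 1 lower (12.3% and 17.6% of all genes). Polycomb genes were marked in 12 of 12 in each group but empty vector at 48 h, with 10, and all 6 Trithorax and demethylase genes found were marked in every group.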

How the data were processed

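ChIP-seq libraries of 3T3-L1 cells (H3K27ac, V5, H3K4me1 and SETD5) were used as 16 island lists. Per the submitters' processing notes and the study's methods, the authors mapped reads to mm9 with Bowtie2 or, by the methods, ELAND. They called islands in each library with SICER or its successor SICER2, so replicates were not pooled. Where the study gives island counts from both callers, the sizes of the lists used here equal those from SICER2. Each deposited list gives the interval and an island score, whose scale differs between libraries; scores were used only to rank islands within a list. Island ends in the files fall on 200 bp steps. The lists hold no read counts, so depth was represented by the number of islands. Total reads per library are given by the study but were not used here. For H3K27ac they were higher in every SETD5-V5 library than in every empty-vector library.

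Gene models were those of NCBIM37 (mm9). A gene was marked in a library where at least 1 bp of an island fell in its window (gene body plus 5 kb each side). It was marked in a group where this held in every library of the group. Cover was the share of the window, or of a cluster's merged windows, inside islands. Groups of 4 H3K27ac libraries were compared by a two-sided exact permutation test on the difference of means, with Benjamini-Hochberg adjustment over 8 tests by cluster and a threshold of 0.05. The members, gene lists and alternatives were chosen with earlier results of these data known. Members were named in the text by 4 rules. The first 2 took the neighbours with the largest step in mean empty-vector 0 h cover in each cluster, and the 3 members with the largest difference in covered bases in each comparison. The others took Hoxc13, and the members with the most V5 or any endogenous SETD5. Further members appear in counts or in the course along a cluster. Meis1, Mtx2 and the noncoding genes were named outside these rules. The alternatives were other windows, score limits, equal list lengths, merging, scaling to all covered bases, a replicate block and leaving out each library. Scripts were tested on simulated islands and against bedtools 2.31.1 (Python 3.11.15, numpy 2.4.6, pysam 0.24.0).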

Additional observations from a re-analysis of the deposited data

Results flagged for a closer look

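Hoxd3, whose product patterns the neck vertebrae, had H3K27ac differences in time of opposite sign with the 2 vectors. From 0 h to 48 h the cover of its window differed by 15.6 and 1.29 percentage points in replicates A and B with empty vector and by -6.04 and -4.75 points with SETD5-V5. The means were 8.43 and -5.39 points, a difference of 13.8 points. It stood out because both libraries of one vector were higher at 48 h and both of the other lower, and this difference was not tested. Replicates were matched by letter for these changes, and nothing in the labels says that the letters pair the cultures. Most of the empty-vector difference came from 1 library, empty vector 48 h replicate A, where an 18.4 kb island ran from Hoxd8 into Hoxd3 and a further one lay inside Hoxd4.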

How the results depend on the processing

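The lower Hox cover with SETD5-V5 kept its sign in every alternative tried. The differences ran from -2.95 to -4.26 points, leaving out scaling to all covered bases, which has another unit. The exact permutation p stayed at 0.0286 under the other windows, equal list lengths, merging and scaling to all covered bases. It was -3.99 (p = 0.0571) with islands above the median score, -3.52 (p = 0.0556, the smallest 36 splits allow) with splits within each time, and -3.52 (p = 0.125, the smallest that flips within blocks allow) with a replicate block (all exact permutation tests). Leaving out 1 library gave -4.10 to -2.95, with exact permutation p = 0.0571 without any 1 SETD5-V5 library or empty-vector 0 h replicate A. Small cluster differences turned sign. Hoxb in time was -0.467 over gene bodies, -9.20e-05 relative to all covered bases and -0.363 to 0.643 with 1 library left out (below 0 without empty-vector 48 h replicate A or B or SETD5-V5 0 h replicate A). Hoxd in time was 0.905 over gene bodies and -3.10 to 0.424 (above 0 without SETD5-V5 48 h replicate A), and Hoxd between vectors -2.53 to 0.0163 (above 0 without empty-vector 48 h replicate A).

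The letters A and B did not mark pairs by the labels, and the correlation of A minus B differences between groups ran from -0.184 to 0.349 over 22253 genes. With a replicate block by letter, the counts of members were 5 higher and 7 lower at 48 h with empty vector, 8 higher in V5 at 6 h, 1 higher and 3 lower over both vectors in time, and 1 higher and 6 lower with SETD5-V5 over both times. With the letters crossed at 0 h, an alternative added after seeing the data, 5 members were higher and 10 lower with SETD5-V5.

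Counts of members without overlap rested on few libraries and, with 1 left out, fewer libraries have to be separated. In empty vector, 3 to 8 were then higher and 7 to 14 lower at 48 h, the extremes being without 0 h replicate A and without 0 h replicate B. In SETD5-V5 2 to 4 were higher. Between vectors at 0 h 4 to 8 were higher (8 without empty-vector replicate A) and 10 to 15 lower (15 without empty-vector replicate B), and at 48 h 1 to 3 higher and 8 to 13 lower (13 without empty-vector replicate B). For V5 3 to 18 were higher at 6 h (18 without 0 h replicate A, 12 without 6 h replicate B) and 0 to 10 lower (10 without 0 h replicate B). Over both vectors 0 to 1 were higher and 1 to 2 lower in time, and over both times 0 to 1 higher and 3 to 6 lower with SETD5-V5 (6 without empty-vector 0 h replicate B). Over gene bodies the counts were 1 lower at 48 h with empty vector, 4 lower with SETD5-V5 at 0 h, 0 higher in V5 at 6 h, and 1 higher and 0 lower over both vectors in time. Equal list lengths gave 1 higher at 48 h with empty vector, 1 higher with SETD5-V5 at 0 h and 0 higher in V5 at 6 h. Islands above the median score gave 5 lower at 48 h with SETD5-V5, 2 higher with SETD5-V5 at 48 h, 2 higher and 3 lower over both vectors in time, and 5 lower with SETD5-V5 over both times. Islands with most of their length inside gave 5 higher in V5 at 6 h and 2 lower in time, merging islands within 1000 bp gave 0 lower in time, and windows from the coding extent gave 1 lower with SETD5-V5 over both times.

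Marked members within 1 kb of the start were 12 with empty vector and 12 with SETD5-V5 at 0 h, 6 and 8 for V5 at 0 h and 6 h, 11 and 10 for H3K4me1 at 0 h and 48 h, and 1 and 3 for endogenous SETD5. Over gene bodies they were 6 and 11 for V5, 16 for H3K4me1 at 0 h and 4 for endogenous SETD5 at 6 h, and with islands above the median score 5 and 11, 16, and 0 and 2 for endogenous SETD5. For V5 at 0 h, 21 were marked in at least 1 library, and 21 in replicate A alone, an alternative added after seeing the data. For results that did not hold, the cause was not tested. The lists hold no read depth, so a missing island cannot be told from one just under the threshold.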

Other observations

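For H3K27ac, replicates overlapped more in the merged Hox windows than over the genome, with Hoxc in SETD5-V5 cells at 0 h below it, at 0.45 against 0.683. The overlap of replicates A and B, as shared bases over all bases covered by either, was 0.772 to 0.821 in the Hox windows and 0.676 to 0.710 over the genome in the 4 groups. For V5 it was 0.285 at 0 h and 0.477 at 6 h, against 0.267 and 0.505. In Hoxb, all V5 bases of replicate B at either time lay in the H3K27ac islands of empty-vector 0 h replicate B (100%). That share rests on 1 V5 island per time, over the Hoxb2 start, and the 0 h one was among the lowest-scoring of its list. In Hoxc, H3K27ac and H3K4me1 lay apart at 48 h, where 1.89% and 1.92% of the H3K27ac bases of the empty-vector libraries were under H3K4me1 islands, against 73.4% and 74.1% in Hoxa.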
